A study of Mus musculus with 4 samples.

Results

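Myc encodes a transcription factor that pairs with Max and drives growth, ribosome production and cell division, and blood stem cells need a controlled dose of it to choose between self-renewal and differentiation. The gene lies near one end of a long stretch that is poor in protein-coding genes. Pvt1, a long non-coding RNA gene known for regulating Myc and for DNA elements that loop to it, follows directly downstream. Much farther downstream lies a cluster of enhancers, known as the blood enhancer cluster, whose loss in mice lowers Myc in stem and progenitor cells.

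The data described here are the accessible regions around Myc, taken as all peaks with a midpoint in chr15:61900001-64000000 of the mouse assembly GRCm38, a span of 2.1 Mb called the Myc window below. The assay was ATAC-seq, which maps open chromatin through the cuts a transposase makes in it, on sorted long-term hematopoietic stem cells (25000 cells per library). All mice were wild-type C57BL/6. The young group (2 libraries) was 4 to 5 months old and the aged group (2 libraries) 20 to 22 months old, and the series asked which accessible sites are specific to an age. The labels call the replicates biological, but do not say if mice were pooled for a library, so the p-values measure the spread between these libraries. The rule for the window used positions alone. Merging overlapping narrow peaks of the 4 libraries gave 132 regions in the Myc window, of 180359 in the whole series and 6770 in the other windows of chromosome 15. The broad lists gave 603 merged regions in the window, of 854010 in all.

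The lists hold peaks and no read counts, so the sequencing depth is unknown. The narrow lists held between 106186 and 133131 intervals per library and the broad lists between 242700 and 468792, with the highest number in aged replicate 2 both times. Aged replicate 2 stood apart on chromosome 15 as a whole. Its share of broad peaks on chromosome 15 was 1.34 times the mean share of the other 3 libraries, against 0.865 to 1.06 for its other chromosomes. For narrow peaks the same ratio was 1.10 on chromosome 15, against 0.966 to 1.03 on the other autosomes, 0.974 on X and 1.105 on Y. Every result in the Myc window is therefore given per library, and results that rest on aged replicate 2 are given without it. Of the 12 hematopoietic stem cell marker genes, 12 had a narrow peak within 1 kb of a gene end in every library. That measure does not separate cell types, since it also held for 69.4% to 70.6% of all protein-coding genes. Markers of other cell types had such a peak at 4 to 5 of 6 B cell genes, 3 to 4 of 7 T cell genes, 4 to 5 of 5 erythroid genes and 1 to 3 of 6 myeloid genes per library, and at 4 of 6 genes of tissues other than blood. Among them Cd3d, Cd4, Bcl11b, Lyz2 and Alb had one in all 4 libraries, and Cd3e, Cd3g, Cd8a, Elane, Mpo, Ly6g, Ins2 and Pou5f1 in none.

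The Myc window holds 27 annotated genes, of which 6 are protein-coding and 9 are long non-coding RNAs. Myc (gene ID 17869) spans chr15:61985341-61990361 and Pvt1 (gene ID 19296) spans chr15:62037986-62260215. Myc and Cyrib, which encodes a regulator of the actin cytoskeleton, had a narrow peak within 1 kb of a gene end in all 4 libraries. The 4 gasdermin C genes, Gsdmc, Gsdmc2, Gsdmc3 and Gsdmc4, members of a family of pore-forming proteins, had none in any library. The distal interval, set here as 1.6 to 1.8 Mb downstream of the end of Myc (chr15:63590362-63790361), covers the place of the blood enhancer cluster. It holds the non-coding RNA genes 4930449C09Rik and Gm41336.

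Promoter sequences of 250 bases are shown for 3 genes from RefSeq (GRCm38.p6), 5′ to 3′ on the strand of the gene. Those of 4930449C09Rik and Mxd4 lie directly upstream of the gene, while that of Mnt runs past the annotated gene start at chr11:74830806. 4930449C09Rik is the non-coding gene inside the distal interval. Mnt and Mxd4 encode partners of Max that repress Myc targets, and each of their promoters lies inside a site that the authors' deposited table lists as less accessible in aged cells. They are shown because they are the 2 of 6 promoters of Myc network genes in such sites that hold an E-box, the motif bound by Myc and Max. The 1 promoter of Mycl and the 3 of Mxi1 have none. Capitals mark matches to 8 motifs, each searched on both strands. For blood factors these were TGTGGT (the core bound by RUNX proteins), AGATAA (for GATA proteins), GAGGAAG (for ETS proteins such as PU.1) and TTGCGCAA (for the C/EBP family). The others were TGACTCA (for AP-1), CACGTG (the E-box), GGGCGG (the GC box, bound by Sp1) and TATAAA (the TATA box). CCGCCC is the GC box on the other strand, and the matches shown do not overlap.
4930449C09Rik chr15:63718098-63718347 (+ strand): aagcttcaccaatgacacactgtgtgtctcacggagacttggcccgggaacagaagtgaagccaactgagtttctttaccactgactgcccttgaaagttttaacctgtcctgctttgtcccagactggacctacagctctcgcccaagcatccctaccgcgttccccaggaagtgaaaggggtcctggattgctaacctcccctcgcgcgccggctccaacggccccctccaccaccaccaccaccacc
Mnt chr11:74830674-74830923 (+ strand): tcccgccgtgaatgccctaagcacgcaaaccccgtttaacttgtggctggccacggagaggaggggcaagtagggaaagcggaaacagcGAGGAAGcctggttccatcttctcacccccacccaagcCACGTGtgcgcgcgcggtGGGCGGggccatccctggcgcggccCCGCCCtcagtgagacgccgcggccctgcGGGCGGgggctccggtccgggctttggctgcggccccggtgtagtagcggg
Mxd4 chr5:34187711-34187960 (- strand): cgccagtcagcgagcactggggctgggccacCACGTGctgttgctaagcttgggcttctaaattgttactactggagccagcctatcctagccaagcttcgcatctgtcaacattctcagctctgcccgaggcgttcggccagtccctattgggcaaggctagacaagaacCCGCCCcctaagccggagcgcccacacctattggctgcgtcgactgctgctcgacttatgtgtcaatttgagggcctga
The E-box CACGTG occurred 1 time in the Mnt sequence and 1 time in the Mxd4 sequence, which were chosen for holding it. Its presence in both is therefore no result. Over the same length, 6.02% of the 32851 promoters in the table hold it. The count to set beside that share is 2 of 6, which is small and includes 3 promoters of 1 gene, Mxi1. The GC box occurred 3 times in Mnt, each past the annotated gene start, and 1 time in Mxd4, and 32.7% of promoters hold it. Mnt also had 1 ETS motif, held by 10.6% of promoters. None of the 8 motifs occurred in the 4930449C09Rik sequence. The table holds 8 promoters inside the Myc window, and none of them overlapped a narrow or a broad peak in any library. Myc and Pvt1 are not among the 8, and a narrow region called in all 4 libraries lay over the start of each. For 4930449C09Rik the nearest narrow peak lay 1834 to 1872 bp from the promoter, depending on the library.

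At Myc itself the promoter was open in all 4 libraries, and its rank among shared regions did not separate the ages. The promoter region, chr15:61984722-61986028, spans the start of the gene. Its fold enrichment over background, the authors' own value for a peak within its library, was 3.74 and 4.97 in young replicates 1 and 2, and 4.51 and 5.19 in aged replicates 1 and 2. Because such folds are set within a library, each was also ranked by −log10 p among the 76400 regions that had a narrow peak in all 4 libraries. The promoter stood at the percentiles 64.1, 80.4, 74.6 and 74.5 in the same order. Young replicate 1 was the lowest and young replicate 2 the highest, so both aged libraries lay between the young ones.

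Another region, inside the Myc gene at chr15:61986717-61987264, ranked higher in both aged libraries. Its fold was 2.75 and 2.62 in the young libraries and 3.34 and 5.15 in the aged ones, in the order of the replicates. Its percentile was 34.5 and 25.1 in young against 49.6 and 72.8 in aged libraries, without overlap. Over all 76400 shared regions, both aged percentiles lay above both young ones in 18% and both below in 18.6%, so a single region with this order is common. A region upstream of the promoter, chr15:61983358-61983783, was present in all libraries with folds of 3.004, 3.54, 2.85 and 3.98, and here aged replicate 1 was the lowest.

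The other 5 regions within 5 kb of Myc were weak and seen in some libraries only. A region upstream at chr15:61984300-61984562 was called in young replicate 1 at a fold of 2.68 and in aged replicate 2 at 2.63. In the middle of the gene, chr15:61987461-61988174 was called in all but young replicate 2, at folds of 1.85, 1.78 and 2.07. Farther downstream, chr15:61992001-61992496 was called in young replicate 1 and aged replicate 1 at 2.21 and 2.29. A peak at chr15:61991299-61991514 was called in aged replicate 1 only, at 1.87, and one at chr15:61981554-61981680 in aged replicate 2 only, at 2.47. Young replicate 2 had 3 narrow peaks within 5 kb of Myc and each other library had 6.

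The distal interval was the most shared stretch of the window. Of its 22 merged regions, 14 (63.6%) had a narrow peak in all 4 libraries, against 39 of 132 (29.5%) in the whole Myc window, 43.7% in the other windows of chromosome 15 and 42.4% in the whole series. The number of narrow peaks in it was 17 and 16 in the young libraries and 19 and 23 in the aged ones. They covered 9.885 and 9.999 kb in young against 11.046 and 10.244 kb in aged libraries. The aged mean was 0.703 kb higher than the young mean (10.6 ± 0.567 against 9.94 ± 0.0806 kb, SD, n = 2 each). That difference exceeded the within-age SD of 0.405 kb, but the exact two-sided permutation p was 0.3333, the smallest that 2 against 2 libraries allow, and 0.417 after Benjamini-Hochberg adjustment over 5 such tests of the window. Without aged replicate 2 the difference was 1.10 kb and without aged replicate 1 it was 0.302 kb, so its size rested on aged replicate 1.

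The strongest distal region by mean rank was chr15:63647508-63649220, which lies 1663.02 kb downstream of the Myc start outside any gene. Its folds were 7.65 and 8.58 in the young and 9.77 and 10.5 in the aged libraries. It ranked at the percentiles 93.6 and 96.5 in young against 98.4 and 98.3 in aged libraries, a small shift at the top of the scale without overlap. The next in mean rank, chr15:63665011-63666062, had folds of 10.3, 10.3, 10.1 and 12.4, and aged replicate 1 was its lowest library.

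The other 4 leading distal regions differed in which library was highest. At chr15:63610882-63611768 the folds were 8.65 and 11.1 in young against 13.2 and 9.65 in aged libraries. Aged replicate 1 ranked it at 94.8 and aged replicate 2 at 60.6, which are the highest and the lowest of the 4 percentiles. At chr15:63601452-63602473 the folds were 6.78, 8.15, 9.08 and 11.0, with both aged libraries above both young ones. At chr15:63657487-63658916 they were 6.88, 6.73, 7.11 and 10.03, again with the aged libraries above. Inside 4930449C09Rik, chr15:63721545-63722246 had folds of 8.66 and 6.46 in young against 7.43 and 9.55 in aged libraries, which overlap between ages. Over the 14 shared distal regions, the median fold was 6.83, 6.01, 7.14 and 8.93. The median fold over all narrow peaks of a library was 4.75, 4.45, 4.56 and 5.14, so aged replicate 2 was highest there too. In 3 of the 14 shared distal regions both aged percentiles lay above both young ones, and in 0 did both lie below. Over all 76400 shared regions these orders made up 18% and 18.6%.

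The remaining 8 distal regions were called in fewer than 4 libraries, with folds from 2.22 to 5.54. Of these, 3 were called in aged replicate 2 only. No distal region was called in both libraries of one age and in neither of the other.

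**Figure D1:**
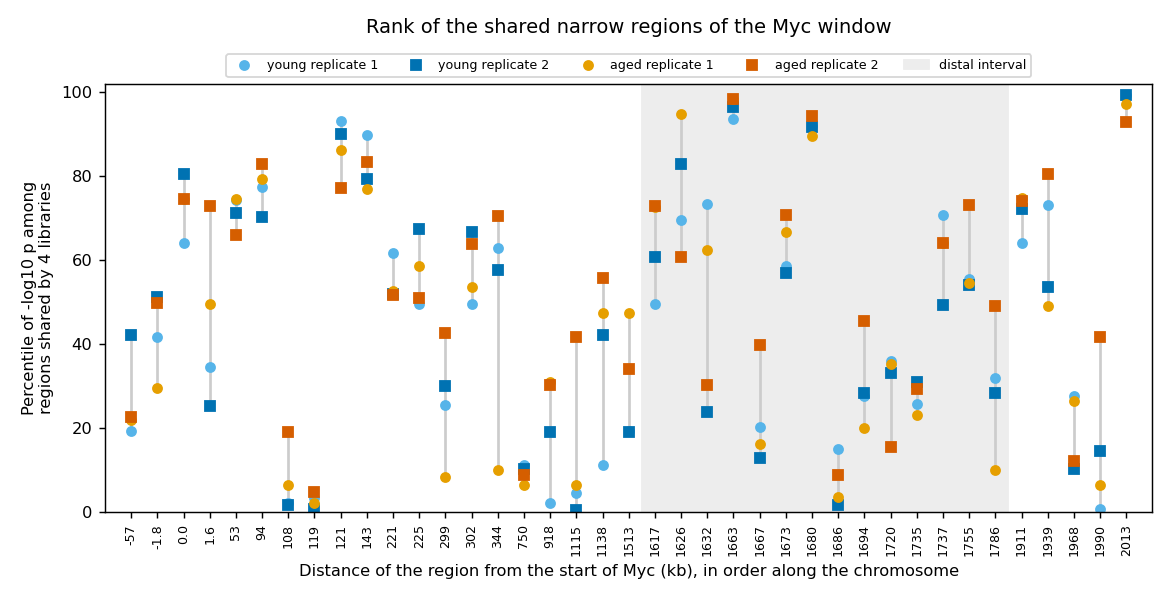
Percentile of −log10 p (vertical axis, 0 to 100) of the 39 narrow regions of the Myc window with a peak in all 4 libraries, among the 76400 such regions of the genome, in order of their distance in kb from the start of Myc (horizontal axis, not to scale). Each point is a library, the grey line joins the lowest and highest library of a region, and the shaded band is the distal interval, where the region at 1663 kb ranked between 93.6 and 98.4.

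The distal regions were among the strongest of the window, and the single strongest was elsewhere. The region with the highest mean rank was chr15:63997092-63998771 inside Cyrib, at the far end of the window. Its folds were 9.69, 9.93, 9.59 and 9.69 and its percentiles 99.4, 99.2, 97.2 and 92.8, with both aged libraries below both young ones.

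The 39 shared regions of the Myc window were more often higher than lower in both aged libraries. Both aged percentiles lay above both young ones in 11 (28.2%), against 18% of all shared regions, and below in 3 (7.69%), against 18.6%. Ranked by fold instead, the counts were 10 above (25.6%, against 19.4% of all shared regions) and 6 below (15.4%, against 17.8%). Aged replicate 2 had the highest of the 4 percentiles in 17 of 39 regions (43.6%), against 27.8% of all shared regions. The median percentile was 49.5 and 49.3 in the young and 49.0 and 51.6 in the aged libraries, so aged replicate 1 was not above the young libraries by this measure. The percentile of aged replicate 2 minus the mean of the other libraries had a median of 3.79 points in the window, 0.0733 on chromosome 15 and -0.214 over all shared regions, and with ranks by fold it was 1.74 points in the window. Taken alone, aged replicate 1 lay above both young libraries in 13 of the 39 regions, against 33.4% of all shared regions, and below both in 12, against 34%. Aged replicate 2 alone lay above both in 21 (53.8%), against 35.4%, and below both in 7 (17.9%), against 36.7%. Without aged replicate 2 the shares in the window were thus near those of the genome.

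Pvt1 was accessible along its body in every library. Some of its regions are named here, chosen after their values were seen, because they carry the signal shared by all libraries. The region over its start, chr15:62037035-62038889, had folds of 8.68, 8.37, 8.09 and 8.02. An inner region, chr15:62106446-62107070, had the highest folds of the young libraries in the gene, 12.6 and 11.6, against 10.6 and 10.2 in the aged libraries. Its percentiles were 93.2 and 89.9 in young against 86.3 and 77.1 in aged libraries, so it ranked lower in both aged ones. At chr15:62127591-62128117 the folds were 11.3, 10.1, 8.99 and 11.8, which overlap. Of 32 merged regions in Pvt1, 8 had a peak in every library and their median fold was 7.75, 8.04, 7.18 and 7.43. Both aged percentiles lay above both young ones in 2 of the 8 and below in 1, against 18% and 18.6% of all shared regions. The 1 below is chr15:62106446-62107070.

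The number of peaks in the Pvt1 body, by contrast, was far higher in aged replicate 2 than in any other library. It was 11, 11, 14 and 31 narrow peaks, and 26, 34, 35 and 78 broad peaks. Of the 32 narrow regions, 17 were called in aged replicate 2 alone, with a median fold of 3.22. Those shared by all libraries had a median fold of 7.43 in the same library. The strongest region called in aged replicate 2 alone was chr15:62245311-62245671 in Pvt1, at a fold of 9.10, and the next, chr15:62046344-62046567, also in Pvt1, had 7.89.

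**Figure D2:**
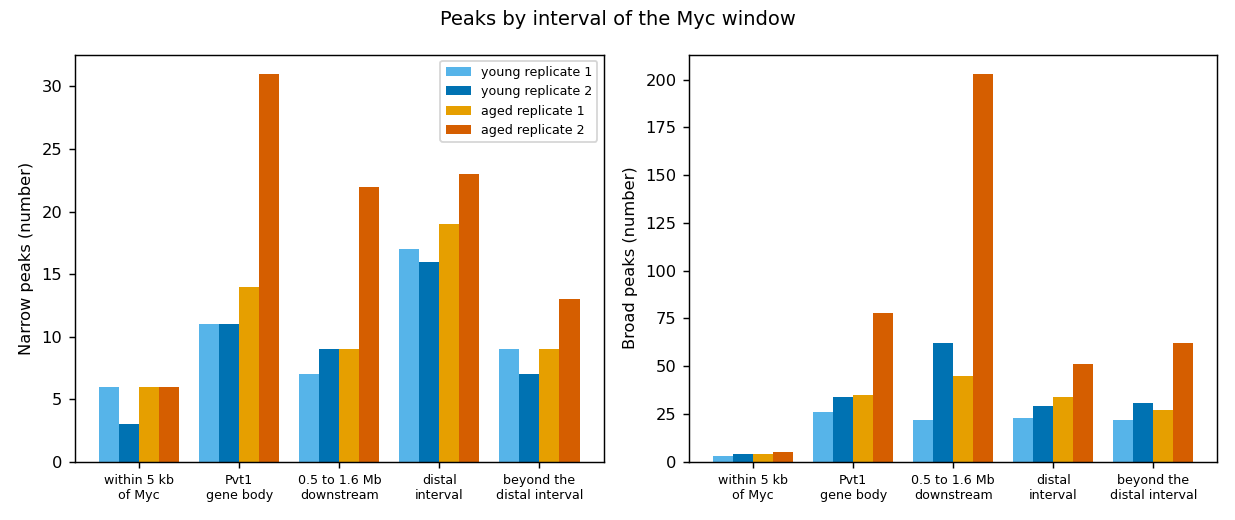
Number of narrow peaks (left) and broad peaks (right) in each interval of the Myc window, 1 bar per library with no error bars. Aged replicate 2 had 31 narrow peaks in the Pvt1 gene body against 11, 11 and 14, and 203 broad peaks from 0.5 to 1.6 Mb downstream against 22, 62 and 45, while the libraries lay closer together in the distal interval (17, 16, 19 and 23 narrow peaks).

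The 2 ages were then compared over the whole window. It held 58 and 55 narrow peaks in the young libraries, and 65 and 124 in the aged libraries. The aged mean exceeded the young mean by 38 peaks (94.5 ± 41.7 against 56.5 ± 2.12, SD, n = 2 each), above the within-age SD of 29.5, with an exact two-sided permutation p of 0.3333 (0.417 adjusted over 5 tests). Without aged replicate 2 the difference was 8.5 peaks. Both aged libraries lay above both young ones, but most of the difference came from 1 library.

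Broad peaks numbered 112 and 186 in the young and 171 and 485 in the aged libraries. The aged mean was higher by 179 (328 ± 222 against 149 ± 52.3, SD, n = 2 each), with an exact two-sided permutation p of 0.667 (0.667 adjusted over 5 tests), and by 22 without aged replicate 2. Aged replicate 1 lay between the young libraries, so the ages overlapped. Of the broad peaks, 31, 29, 29 and 49 had a q under 0.05, the authors' false discovery rate for a peak.

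Since aged replicate 2 had more peaks on all of chromosome 15, the window was also expressed as a share of the peaks of that chromosome. For narrow peaks the share was 1.45% and 1.199% in young against 1.48% and 2.28% in aged libraries (exact binomial 95% interval of the last 1.896% to 2.71%, counting error only). The aged mean was higher by 0.554 percentage points (exact two-sided permutation p = 0.3333, adjusted 0.417, n = 2 each), and by 0.157 without aged replicate 2. For broad peaks it was 1.26% and 1.13% in young against 1.48% and 2.139% in aged libraries. That difference was 0.610 points (exact two-sided permutation p = 0.3333, adjusted 0.417, n = 2 each), and 0.280 without aged replicate 2. With the chromosome as denominator aged replicate 1 was above both young libraries in both lists, by 0.0324 percentage points over young replicate 1 in the narrow list and by 0.216 in the broad list.

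Against other parts of chromosome 15 the window stood out in aged replicate 2. Its share of that library's narrow peaks was 1.82 times the mean share of the other 3 libraries. In the 48 other windows of 2.1 Mb on the chromosome this ratio ranged from 0.666 to 1.74 with a median of 1.09, so none was above the Myc window. The ratio of each other library to the remaining 3 was 0.852 and 0.642 for the young libraries and 0.873 for aged replicate 1. The value of young replicate 2 was below its values in all 48 control windows. For broad peaks the ratio of aged replicate 2 was 2.23 (95% interval 2.03 to 2.43). That interval holds the counting error of aged replicate 2 only and takes the shares of the other libraries as exact, so it is too narrow. The control windows ranged from 1.02 to 2.69 with a median of 1.32, and 1 was above the Myc window. Among strong peaks the ratio was smaller in the broad list, at 1.42 for q under 0.05 and 1.16 for p under 1e-05. In the narrow list it was 1.82 for q under 0.05 and 1.69 for p under 1e-05, with none of 48 control windows above it at either threshold. Whether that library held more reads or more DNA from the window was not tested, since the lists give no read counts.

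The control window with the higher broad ratio adjoins the Myc window on its upstream side (chr15:59800001-61900000). It held 68 and 140 broad peaks in young and 107 and 385 in aged libraries, and 30, 43, 37 and 62 narrow peaks. On the downstream side the adjoining window held 166, 282, 208 and 421 broad peaks. Windows of the same size were also laid from the start of every chromosome, leaving out those that overlap the Myc window and those with a mean under 20 narrow peaks in the other libraries. In these 1138 windows the narrow ratio of aged replicate 2 reached at most 1.58 (95th percentile 1.18) and the broad ratio at most 1.94. The adjoining upstream window, at a broad ratio of 2.69, is not one of this grid. The 3 control windows with broad counts nearest to those of the Myc window were chr15:38800001-40900000, chr15:93400001-95500000 and chr15:7300001-9400000, and their broad ratios were 1.69, 1.68 and 1.603.

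**Figure D3:**
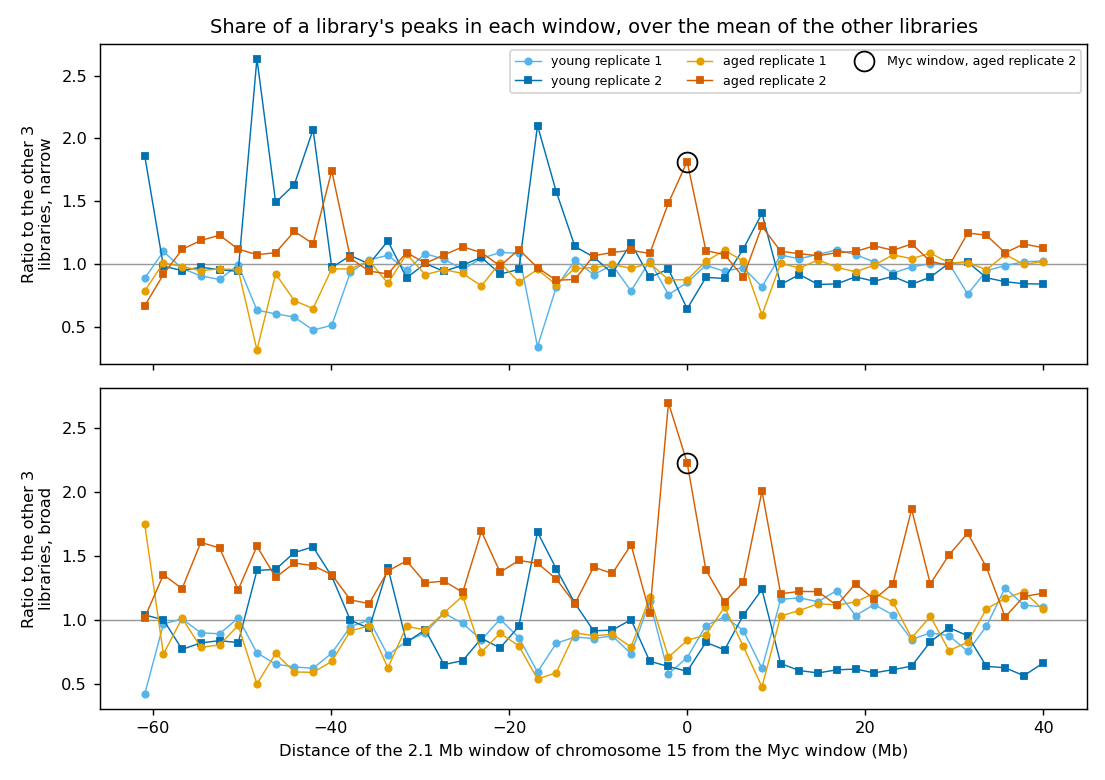
Share of each library's narrow (top) and broad (bottom) peaks in windows of 2.1 Mb along chromosome 15, divided by the mean share of the other 3 libraries (vertical axis, ratio), against the distance from the Myc window in Mb. Each line is a library and the circle marks aged replicate 2 in the Myc window, at 1.82 for narrow and 2.23 for broad peaks, with a higher broad value in the adjoining upstream window only.

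The additional peaks of aged replicate 2 were spread between the open regions. In bins of 100 kb along the Myc window it had the most broad peaks in 21 of 21 bins, with 12 to 36 a bin. It had the most narrow peaks in 14 of 21. The difference from the other libraries was larger away from the strong regions. In the 0.3 Mb that begin at the Myc start, its share of broad peaks was 1.67 times the mean of the others, and in the next 4 such bins it was 4.00, 3.53, 3.77 and 3.20 times. It came down to 1.32 in the bin that holds most of the distal interval, to 1.21 in the next and to 1.04 just past 2.1 Mb. Farther downstream it was higher again in places, at 2.27, 3.10 and 2.80 in the bins between 2.7 and 3.6 Mb. Upstream, the ratio was 3.87 in the bin before Myc and reached 10.3 between 1.8 and 1.5 Mb before it, where the counts were 1, 7, 1 and 36 broad peaks. Between 4.2 and 2.1 Mb upstream the ratio was between 0.916 and 1.32.

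The stretch between 0.5 and 1.6 Mb downstream of the Myc end, which holds only non-coding genes and pseudogenes in the annotation, shows this most plainly. It held 22 and 62 broad peaks in young and 45 and 203 in aged libraries. With q under 0.05 they numbered 3, 1, 2 and 8. Narrow peaks there numbered 7, 9, 9 and 22. In the distal interval, in contrast, the broad peaks with q under 0.05 numbered 13 and 11 in young against 12 and 13 in aged libraries, and they covered 16.19, 16.245, 17.351 and 13.97 kb. Aged replicate 2 was the shortest at this threshold, but the longest among broad peaks with p under 1e-05, which covered 9.256, 7.255, 8.637 and 9.623 kb.

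**Figure D4:**
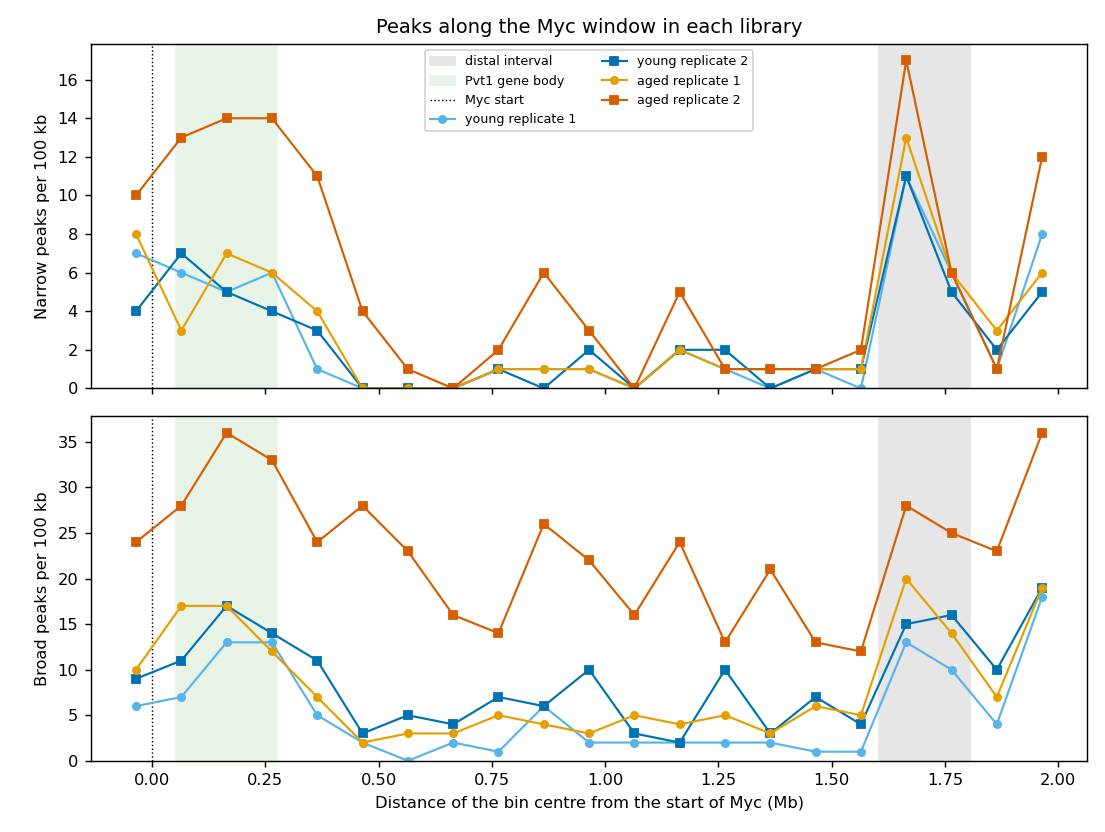
Narrow (top) and broad (bottom) peaks per bin of 100 kb along the Myc window, against the distance of the bin centre from the Myc start in Mb, with 1 line per library, the Pvt1 body in green and the distal interval in grey. Aged replicate 2 lies above the other libraries in all 21 broad bins, with 12 to 36 peaks, and in the first distal bin the libraries hold 11 to 17 narrow peaks each.

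Which libraries shared a region gave the same picture by another count. Of the 132 narrow regions, 55 (41.7%) were called in aged replicate 2 only, against 17.3% in the other windows of chromosome 15 and 13.3% in the whole series. The other libraries had 1 (0.758%) and 4 (3.03%) regions of their own in the window for the young libraries and 5 (3.79%) for aged replicate 1. In the whole series these shares were 4.96%, 11.9% and 7.08%. The window shares are lowered by the 55 regions of aged replicate 2, which count among the 132. The regions called in aged replicate 2 alone had a median fold of 3.17, with a range of 2.16 to 9.10, and 41 of 55 had a q under 0.05. Such regions had a median fold of 3.02 on the rest of chromosome 15 and 2.91 over the genome. By place, they made up 34 of 64 regions in the first 0.5 Mb downstream of the Myc start and 12 of 23 regions from 0.5 to 1.6 Mb, but 3 of 22 in the distal interval and 1 of 8 within 5 kb of Myc. Of the 603 broad regions, 323 (53.6%) were called in aged replicate 2 alone, against 34.1% in the other windows of the chromosome.

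**Figure D5:**
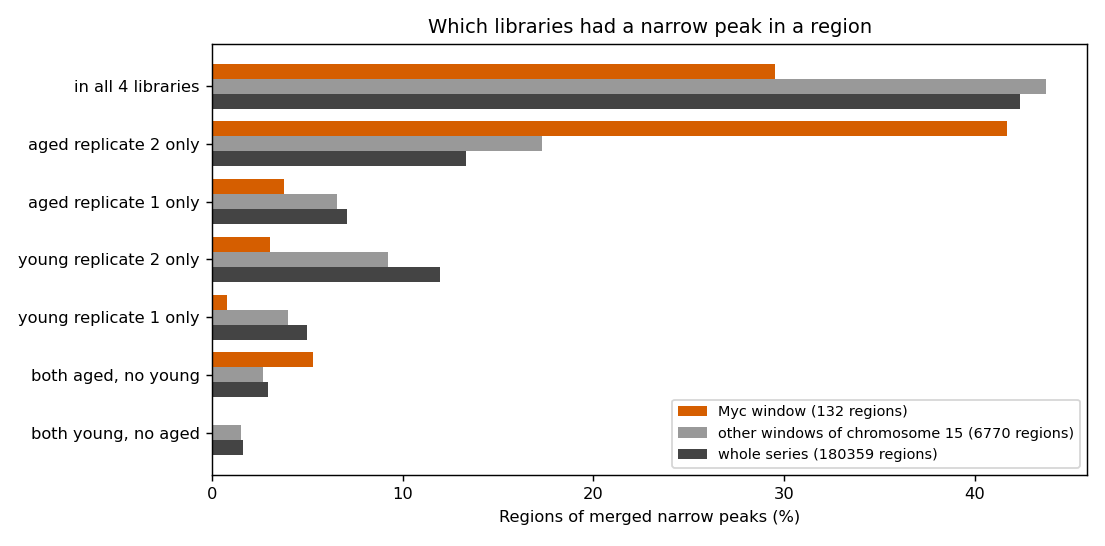
Share of merged narrow regions (horizontal axis, %) by the libraries that had a peak in them, for the Myc window (132 regions), the other windows of chromosome 15 (6770) and the whole series (180359). Regions called in aged replicate 2 only made up 41.7%, 17.3% and 13.3%, and regions in all 4 libraries 29.5%, 43.7% and 42.4%.

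There were 7 regions (5.30% of the window) that had a narrow peak in both aged libraries and in neither young one, against 2.69% in the other windows of chromosome 15 and 2.91% in the series. None had one in both young libraries only, against 1.52% and 1.63%. The strongest of them was chr15:62169126-62170249 in Pvt1, with folds of 3.91 in aged replicate 1 and 8.61 in aged replicate 2. Another in Pvt1, chr15:62221168-62221433, had folds of 2.61 and 3.17. Downstream of Pvt1, chr15:62334388-62334881 had 2.93 and 5.54, and chr15:62392447-62393061 had 3.26 and 6.12. Farther away, chr15:63340453-63340731 had 2.28 and 5.14. The 2 weakest were chr15:61935708-61935916, at 2.61 and 2.77, and chr15:63925697-63925943, at 2.13 and 2.13. Aged replicate 1 had the lower fold in each of the 7. With peaks of q under 0.05 only, there were 4 regions of this kind. Leaving out 1 library loosens the rule, since the age that lost it is then judged by its 1 remaining library. This looser rule gave 12 to 63 regions, with 13 when aged replicate 2 and 63 when aged replicate 1 was left out. The share of all regions under the looser rule was not computed.

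The authors' deposited tables list 1 broad site and 0 narrow sites that differ between ages in the window. In the authors' deposited table of narrow sites, 0 of the 67 window regions that 2 or more libraries shared were listed, against 4.36% of all such regions (4.34% less accessible and 0.0239% more accessible in aged cells). On chromosome 15 that table lists 124 of 4327 (2.87%). The authors' deposited table of broad sites lists 1 of 157 window regions (0.637%), against 0.464% of all such regions (0.0862% more accessible and 0.378% less accessible in aged cells).

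The listed broad site is chr15:62177753-62178578 inside Pvt1, 192.824 kb downstream of the Myc start. In the authors' deposited table its log2 level was 3.18 in young and 5.61 in aged cells, a log2 fold of 2.43 with p = 0.000161 and FDR = 0.0413. The peak lists had no broad peak there for young replicate 1, a fold of 1.51 for young replicate 2, and folds of 1.69 and 2.31 for the aged libraries. None of those 3 broad peaks had a q under 0.05. The narrow region inside the site, chr15:62177877-62178187, was called in aged replicate 2 only, at a fold of 3.22. Aged replicate 2 was highest here as over most of the window, and the part of that library in the listed difference was not tested, since the table has no values per library. The nearest listed broad site upstream, chr15:61548438-61549399 outside any gene, had a higher level in aged cells in the authors' deposited table (5.42 against 2.46, log2 fold 2.95, FDR = 0.023). It lies in a bin of 0.3 Mb with 11 and 24 broad peaks in the young and 17 and 73 in the aged libraries. The ratio of aged replicate 2 was 3.11 in that bin, and the part of that library in this site was not tested either. The nearest narrow sites listed in the authors' deposited table lay outside the window, in Mtss1 upstream (log2 fold -0.48, FDR = 0.0325) and in Asap1 downstream (log2 fold -0.48, FDR = 0.0309).

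The genes whose products work with Myc lie on other chromosomes and were described by the same measures. Of 18 listed genes of the Myc network, Myc included, 18 had a narrow peak within 1 kb of a gene end in all 4 libraries, against 67.1% of the 21887 protein-coding genes. In the authors' deposited table of narrow sites, 4 of 18 (22.2%) had a site with lower accessibility in aged cells, against 19.7% of all protein-coding genes, and 0 had a site with higher accessibility. Broad sites with such a loss were at 2 of 18 (11.1%) in the authors' deposited table, against 4.53%. The counts are small and the narrow share is near the background.

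Of the 4 genes with listed sites, 3 encode Max partners that repress Myc targets. Mxd1, Mxd3 and Mga, listed Max partners of the same kind, had no listed site in either table. For Mnt the authors' deposited table gives log2 values of -0.32 at the promoter site chr11:74829733-74833034 (FDR = 0.00496) and -0.29 inside the gene (FDR = 0.0189). In the narrow sites of the authors' deposited table Mxi1, another Max partner, stands at -0.35 (FDR = 0.00802) and -0.36 (FDR = 0.0222). The broad sites of the authors' deposited table give -0.33 for Mnt (FDR = 0.0198) and -0.41 for Mxi1 (FDR = 0.000462). Mxd4 had -0.33 (FDR = 0.0257) at the site that holds the promoter sequence shown above, per the authors' deposited table. The authors' deposited table also lists Mycl, a paralog of Myc, at a log2 fold of -0.38 (FDR = 0.0305). Myc, Mycn and Max had no listed site in either of the authors' deposited tables.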

How the data were processed

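ATAC-seq libraries of long-term hematopoietic stem cells (2 young, 2 aged) were analysed from their peak lists. The submitters' processing notes name FastQC 0.11.9, BWA 0.7.17, MACS2 2.1.2, DiffBind 2.14.0 and the build GRCm38. Their settings, read shifting and duplicate handling are not given in the sources used here, and such steps can change the number of peaks. The authors called peaks separately in each library, and the deposited lists give a fold enrichment (ratio), a −log10 p-value and a −log10 q-value per peak. The authors' deposited tables of differing sites give log2 levels, a log2 fold, a p-value and an FDR, with no value per library. These values are the authors' own. The lowest −log10 p was 2.00 in each deposited narrow list and 1.00 in each broad list, so broad lists hold weaker peaks.

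Narrow intervals listed with several summits were counted 1 time. Peaks were placed by their midpoint and merged into regions where they overlapped. Members and gene lists were chosen with earlier results of these data known. The regions named are those within 5 kb of Myc, the 6 distal regions and the 1 window region with the highest mean rank, those of 1 age only, and the listed sites. The 3 other shared Pvt1 regions and the 2 strongest regions of aged replicate 2 alone were named after their values were seen. So was the narrow region inside the listed broad site. Ages were compared over libraries by an exact permutation test. Gene positions come from RefSeq GRCm38.p6, which gives no exons here. The replicate numbers were not taken as pairs in the permutation test. Recovery of planted regions was tested on simulated peak lists. The work used bedtools 2.31.1 and Python 3.11.15 with pandas 2.3.3, numpy 2.4.6, matplotlib 3.10.9 and scipy 1.17.1. The alternatives tried were stricter peak thresholds, equal numbers of peaks, other windows, other overlaps and leaving out each library.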

Additional observations from a re-analysis of the deposited data

How the results depend on the processing

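None of the 5 tested comparisons of ages reversed under the alternatives run, and none could pass a threshold, since the exact permutation p lay between 0.3333 and 1 over 49 settings. Among smaller intervals, described without being part of those tests, aged minus young turned from 5.443 to -0.557 kb for the broad length of the distal interval with q under 0.05. Within 5 kb of Myc it turned from 1 to -0.5 broad peaks with equal numbers of peaks, and from 0.452 to -0.042 kb of narrow length with p under 1e-05. The excess of aged replicate 2 depended on peak strength in the broad list, while in the narrow list its ratio was 1.82 for all peaks, 1.82 with q under 0.05 and 1.69 with p under 1e-05. Its ratio of 2.23 for broad peaks was 1.97 with the same number of peaks taken from every library, 1.82 for narrow peaks, 1.42 for broad peaks with q under 0.05 and 1.16 for broad peaks with p under 1e-05. For broad peaks at q under 0.05, 1 of 48 control windows was above the Myc window, and at p under 1e-05 11 of 46 were. Among windows with a mean of at least 20 peaks in the other libraries these were 0 of 38 and 3 of 31. The windows on all chromosomes, the bins of 0.3 Mb, the percentiles and the aged libraries taken 1 at a time were chosen after seeing the data. So was a grid of windows that began at the chromosome start and moved by 0.7 Mb. On it 1 of 138 broad windows was above the Myc window and none of 121 narrow windows. That broad window, at a ratio of 2.44, lay 24.9 to 27 Mb downstream of the start of the Myc window, apart from the adjoining upstream one. The 7 regions of both aged libraries alone became 4 with q under 0.05 and 3 with equal numbers of peaks. Under the looser rule with 1 library left out, regions of the aged libraries alone numbered between 12 and 63. Regions of both young libraries alone numbered 0, 1 when 50% of a region had to be covered, and between 1 and 5 under that looser rule. The authors' deposited tables hold 0 sites in the window at an FDR under 0.01 and 0 in the distal interval. Same-numbered libraries were also taken as pairs. With this replicate block the aged minus young differences were 7 and 69 narrow peaks (mean 38), 59 and 299 broad peaks (mean 179), means of 0.554 and 0.610 percentage points for the shares, and 0.703 kb for the distal length, each with an exact sign-flip p of 0.5. The deviations of same-numbered libraries correlated at -0.0732 over 76400 shared regions and at 0.0885 over the 39 of the Myc window. Such a correlation leaves out any shift of a whole library, so it cannot decide on pairing. The broad lists held 242700 (young) and 322627 (aged) peaks in the replicate 1 libraries. In the replicate 2 libraries they held 461860 (young) and 468792 (aged). Whether same-numbered libraries were handled together was not tested. The peak names of same-numbered libraries share a tag whose meaning is not given in the sources used here. Read depth is unknown, so no precision from reads can be given.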
